A study of Mus musculus with 6 samples.

Results

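The glucocorticoid receptor and a group of its response genes were measured by RNA-sequencing of whole tibialis anterior (TA) muscle, a fast limb muscle, in which Yap had been knocked down. The group held Nr3c1, which encodes the receptor, and Sgk1, Fkbp5, Tsc22d3, Klf15, Klf9, Cebpd, Ddit4, Zbtb16 and Hsd11b1. These 10 genes were chosen by symbol as known parts of the pathway, with earlier results of these data known. All 10 were among the 13226 genes of the count table and passed the filter on low counts that left 13113 genes for testing. None of the 10 differed detectably between Yap-shRNA and control muscles. In the main edgeR test 0 of all 13113 genes, Yap1 included, passed the threshold of 0.05 after adjustment. The 95% interval of 9 members lay within 1 log2 unit of 0, as did that of 88.2% of all genes.

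Male C57BL/6 mice aged 8 weeks were injected in the TA muscle, and muscles were taken 7 days later. Treated muscles (n = 3) received AAV6:Yap-shRNA, an adeno-associated viral vector carrying a short hairpin RNA against Yap, and the muscle of the opposite leg received a control vector (n = 3). By its title each control muscle got an empty vector, but its vector entry, like the design, gives AAV6:LacZ-shRNA. All muscles thus carried an AAV6 vector, and no uninjected muscle was analysed here. The Yap hairpin was cloned into a plasmid that carried eGFP behind the CMV promoter, which is active in many cell types. The design states that muscles were paired within 3 animals, and the titles number the muscles 1 to 3 in each group, but no label says that a number is an animal. Numbers were taken here to mark animals.

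Glucocorticoids are steroid hormones of the adrenal gland that rise with stress, fasting and the daily cycle. They bind the receptor in the cytoplasm, where it is held by Hsp90 chaperones, and the receptor then enters the nucleus and binds DNA as a dimer at paired, inverted arms of a short element. In skeletal muscle it raises genes that restrain growth signalling, release amino acids from protein and shift fuel use towards fat. Several of its targets feed back: Fkbp5 lowers the affinity of the receptor for hormone, and Tsc22d3 encodes a leucine zipper protein that carries much of the anti-inflammatory effect.

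Promoter sequences are shown for the pair of members whose windows held an arm of the receptor element, since they give the DNA context of the response genes described next. RefSeq promoter windows on GRCm38.p6 (250 bases before to 50 bases after a start site) matched 7 of the 10 members, with 14 windows in all. The members Nr3c1, Cebpd and Zbtb16 had no window. The full element, AGAACA and TGTTCT parted by any 3 bases, which reads the same on both strands, was searched as exact letters. It was in 1 of these windows, at Sgk1, chr10:21993701-21993715 on the plus strand, beginning at position -189 from the start site. Among all windows it was in 3 of 32851 (0.00913%), and among the 9390 genes of the table with a window it was in 1, Sgk1 itself (0.0106%). A single arm, AGAACA or TGTTCT, which also counts the arms of the full element, was in 4 of the 14 windows, at 2 members, against 19.0% of all windows. Sgk1 had 6 windows and so more chances of a match. The Sgk1 window chr10:21993640-21993939 and the Tsc22d3 window chrX:140600473-140600772 (minus strand) are printed with the arms, and the whole full element, in capitals.
Sgk1: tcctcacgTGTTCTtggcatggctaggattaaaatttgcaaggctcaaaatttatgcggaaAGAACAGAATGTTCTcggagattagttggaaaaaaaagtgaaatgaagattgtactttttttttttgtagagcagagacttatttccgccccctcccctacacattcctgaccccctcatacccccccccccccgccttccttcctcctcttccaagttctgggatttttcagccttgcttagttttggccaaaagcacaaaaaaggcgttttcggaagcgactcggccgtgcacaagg
Tsc22d3: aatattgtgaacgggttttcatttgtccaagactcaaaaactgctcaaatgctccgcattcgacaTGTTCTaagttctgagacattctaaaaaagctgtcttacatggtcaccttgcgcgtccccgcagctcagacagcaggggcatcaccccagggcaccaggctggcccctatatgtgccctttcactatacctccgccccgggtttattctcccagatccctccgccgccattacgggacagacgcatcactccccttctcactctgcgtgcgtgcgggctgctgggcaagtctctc
The core element of the Tead factors, through which Yap acts on DNA (CATTCC or GGAATG on either strand), was in 1 of the 14 windows, the same Sgk1 window at position -87, and in 14.7% of all windows. These matches describe letters only, and binding was not measured.

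The deposited values were raw read counts per gene, and the libraries held 11987167 to 12710393 counts. Levels are given as CPM, read counts scaled to library size with the TMM factors of edgeR. The targeted gene, Yap1, stood at 71.2, 65.3 and 68.4 CPM in controls 1 to 3 and at 32.0, 23.9 and 39.5 CPM in treated muscles 1 to 3. Its mean was 46.5% of control, with a log2 fold change of -1.10 (95% interval -1.46 to -0.75), an exact permutation p of 0.10, the smallest that 3 against 3 muscles allow, and an edgeR quasi-likelihood adjusted p of 0.323. Muscle fibre markers (Ckm, Acta1, Myh4 and others, 8 of 8 measured) summed to 134400 to 164700 CPM, which fits the labelled tissue. Certain libraries stood apart in markers of other tissues. Tendon markers (4 of 4) summed to 338.3 CPM in control 1 and 309.2 CPM in Yap-shRNA 3, against 38.1 to 58.5 CPM in the other 4 muscles, and hepatocyte markers (5 of 5) summed to 419.3 CPM in control 3 against 0.399 to 49.4 CPM elsewhere. Estimates of the members without some of these libraries are given where a member is described. In bulk muscle, fewer cells of a type and less RNA per cell cannot be told apart.

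Among the 10 genes the level per length of transcript spanned 21.35-fold, from Sgk1 at 45.6 ± 6.39 CPM per kb of exon (SD, n = 6 libraries) to Cebpd at 2.14 ± 0.686 CPM per kb. Sgk1 encodes a kinase that acts on ion channels and on Foxo factors, and it was above 94.7% of the genes compared. Tsc22d3 followed at 33.9 ± 3.35 CPM per kb, and these were the most abundant members by a wide margin. The transcription factor genes Klf9 (15.3 ± 2.70) and Klf15 (10.7 ± 1.40) came next, then the receptor gene Nr3c1 at 7.07 ± 0.373 CPM per kb. Below the receptor stood Ddit4 (5.67 ± 0.358), which encodes an inhibitor of mTORC1, Fkbp5 (5.06 ± 0.546), Zbtb16 (4.02 ± 0.821) and Hsd11b1 (2.43 ± 0.551). The 6 libraries of Sgk1 were all above those of Tsc22d3, those of Tsc22d3 above Klf9, those of Klf15 above Nr3c1 and those of Nr3c1 above Ddit4. The ranges of the other neighbours in this order (Klf9 and Klf15, Ddit4 and Fkbp5, Fkbp5 and Zbtb16, Zbtb16 and Hsd11b1, Hsd11b1 and Cebpd) overlapped. Lengths were the union of all annotated exons of a gene, so a gene with many unused exons is placed too low.

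**Figure D1:**
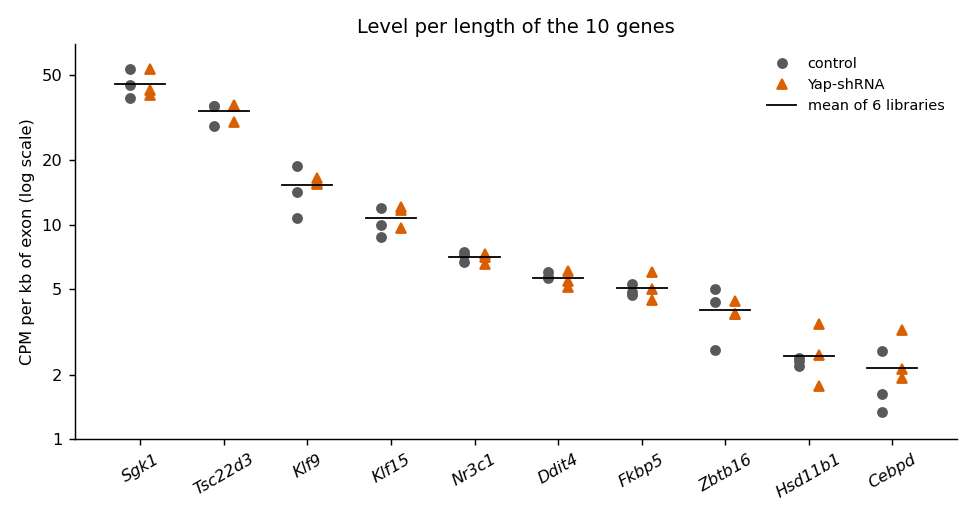
Level per length of the 10 genes, in CPM per kb of exon on a log scale, in 3 control muscles (grey circles) and 3 Yap-shRNA muscles (orange triangles), with a line at the mean of the 6 libraries. Sgk1 at 45.6 and Tsc22d3 at 33.9 stand above the rest, the receptor gene Nr3c1 lies at 7.07, and the marks of the groups overlap in each gene.

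The question of the comparison was whether lowering Yap for 7 days altered the receptor, the supply of its ligand or its response genes. Of the 10 members, 0 passed edgeR's quasi-likelihood test at 0.05 after Benjamini-Hochberg adjustment, as did 0 of the 13113 genes tested (0%). At an unadjusted p under 0.05 there were 0 members, against 211 genes (1.61%). DESeq2, the likelihood ratio test and limma-voom each called 0 members too, at 5, 5 and 0 genes overall. The groups failed to overlap in 0 of the 10 members, against 5.27% of all genes (2.54% with all treated muscles above all controls and 2.73% below). The median log2 fold change of the members was 0.043 and the median of the absolute values 0.060, against -0.0025 and 0.090 over all genes tested, with 7 members on the higher side and 3 on the lower. The 95% intervals, which are not adjusted for the number of genes, lay within 1 log2 unit on either side of 0 for 9 of 10 members, the exception being Cebpd, and for 88.2% of all genes. The edgeR p-values set the group difference against a spread estimated from only 6 muscles, with information shared over genes. This fit leaves out the pairing within 3 animals.

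**Figure D2:**
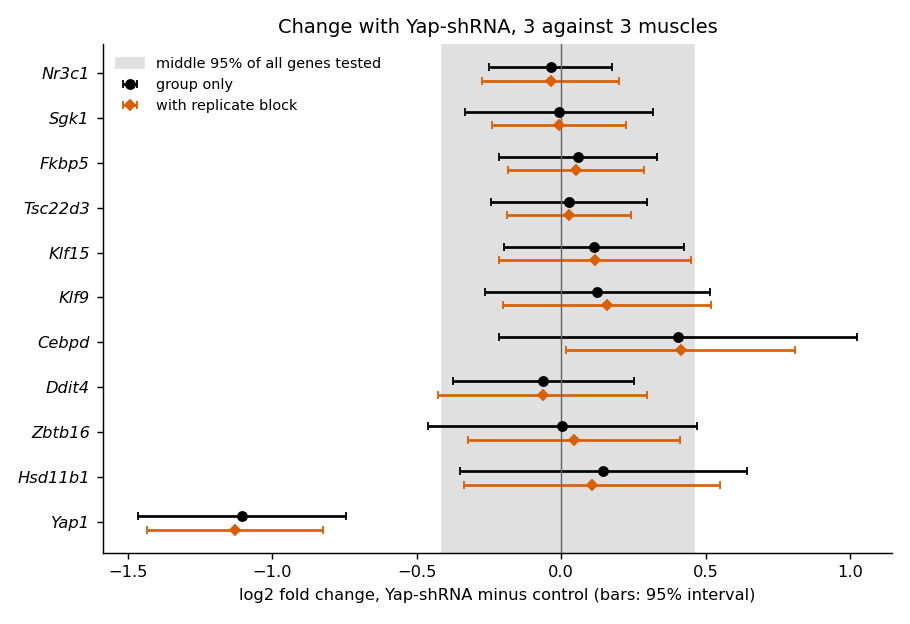
Log2 fold change (Yap-shRNA minus control) of each member and of Yap1, with 95% intervals, fitted with group only (black circles) and with the muscle number as a block (orange diamonds). The grey band holds the middle 95% of all genes tested, from -0.41 to 0.46, and the estimates of all 10 members lie inside it while Yap1 lies at -1.10.

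The receptor gene, Nr3c1 (ENSMUSG00000024431; chromosome 18, 39410545 to 39519421, minus strand, on GRCm38 as are all positions), has 9 annotated transcripts, all of them coding. It stood at 57.7, 51.6 and 55.7 CPM in controls 1 to 3 and at 50.3, 56.5 and 54.1 CPM in treated muscles 1 to 3. The groups overlapped over almost their whole range, and each held one muscle near 50 CPM. Control muscles averaged 55.0 ± 3.08 CPM and treated muscles 53.6 ± 3.10 CPM (SD, n = 3 each). The fitted log2 fold change was -0.036 (standard error 0.095, edgeR quasi-likelihood adjusted p = 1.00), and its 95% interval ran from 84.2% to 113.0% of control. Nr3c1 varied little: its coefficient of variation over the 6 libraries was 5.27%, against 3.85% from counting alone at its mean of 675.2 reads, and 94.1% of all genes had a larger SD on the log2 scale.

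Hsd11b1 (ENSMUSG00000016194; chromosome 1, 193221634 to 193264075, minus strand) encodes the reductase that regenerates active corticosterone from its inert form inside cells, so it sets the local supply of ligand. Its levels were 9.88, 10.2 and 9.36 CPM in controls 1 to 3 and 14.6, 10.5 and 7.496 CPM in treated muscles 1 to 3. The controls were close together, while the treated muscles held both the highest and the lowest value of the 6. The mean was 110.8% of control, the log2 fold change 0.15 (standard error 0.22, edgeR quasi-likelihood adjusted p = 1.00) and the interval 78.4% to 156.1% of control. It became -0.12 without Yap-shRNA 1 and 0.35 without Yap-shRNA 3. Hsd11b1 is also made in liver and fat. Control 3, with the highest hepatocyte sum (419.3 CPM), had the lowest Hsd11b1 of the controls, and leaving it out gave a log2 fold change of 0.11. The controls held only 114 to 127 Hsd11b1 reads, where counting alone gives a coefficient of variation of 8.84%, so their order carries little information. The sum of adipocyte markers (6 of 7 measured, all but Lep) was 241.3 to 271.9 CPM in control and 235.1 to 295.7 CPM in treated muscles, and Fabp4 made up most of it, at 205.2 to 257.7 CPM. The other 5 markers were each highest in Yap-shRNA 3, the muscle with the lowest Hsd11b1. Adipoq stood there at 16.3 CPM against 1.59 to 4.75 CPM in the other muscles, and Cfd at 50.1 against 8.03 to 14.0 CPM. The part of liver and of fat in these values was not tested.

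Fkbp5 (ENSMUSG00000024222; chromosome 17, 28399094 to 28517527, minus strand), the co-chaperone of the feedback loop on the receptor, stood at 46.0, 50.3 and 44.7 CPM in controls 1 to 3 and at 42.4, 57.0 and 47.4 CPM in treated muscles 1 to 3. The highest and the lowest values were both in treated muscles, and muscle 2 was the highest of its group on both sides. The log2 fold change was 0.059 (standard error 0.12), with an interval of 86.2% to 126.0% of control. Tsc22d3 (ENSMUSG00000031431; chromosome X, 140539528 to 140600659, minus strand) stood at 125.4, 156.5 and 155.5 CPM in controls and at 131.6, 156.7 and 157.0 CPM in treated muscles. Muscle 1 was the lowest in both groups, and same-numbered muscles differed by only 0.069, 0.0017 and 0.014 on the log2 scale, higher in Yap-shRNA each time. The log2 fold change of Tsc22d3 was 0.026 (standard error 0.12, edgeR quasi-likelihood adjusted p = 1.00), with an interval of 84.4% to 122.8% of control. It turned to -0.11 with control 1 and Yap-shRNA 3, the tendon-rich muscles, both left out.

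Sgk1 (ENSMUSG00000019970; chromosome 10, 21882184 to 21999903, plus strand) had the largest counts of the members. The full receptor element printed above lies in 1 of its 6 promoter windows, and which start site these muscles used was not measured. Sgk1 stood at 191.6, 261.4 and 219.7 CPM in controls 1 to 3 and at 208.2, 263.2 and 198.2 CPM in treated muscles 1 to 3. Muscle 2 was the highest on both sides, and the other muscles of the groups were interleaved. The means were 224.2 ± 35.1 and 223.2 ± 35.0 CPM (SD, n = 3 each), a log2 fold change of -0.0063 (standard error 0.15) with an interval of 79.5% to 124.8% of control. Counting error at 2776 reads accounts for a coefficient of variation of 1.90%, against 14.0% observed. Ddit4 (ENSMUSG00000020108; chromosome 10, 59949669 to 59951834, minus strand) was the opposite case. Its 114 to 134 reads gave 10.0, 10.5 and 9.93 CPM in controls and 9.56, 8.99 and 10.7 CPM in treated muscles, a coefficient of variation of 6.31% where counting alone gives 8.998%. The spread of Ddit4 was thus no larger than counting error, and its log2 fold change was -0.062 (standard error 0.14), with an interval of 77.1% to 119.2% of control. The estimate was -0.13 without Yap-shRNA 3, -0.0060 without Yap-shRNA 2 and -0.14 with both tendon-rich muscles left out.

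Among the transcription factors, Klf15 (ENSMUSG00000030087; chromosome 6, 90462576 to 90475238, plus strand), which drives breakdown of branched-chain amino acids, stood at 24.6, 28.0 and 33.7 CPM in controls 1 to 3 and at 32.6, 33.7 and 27.0 CPM in treated muscles. The groups covered nearly the same range, and the log2 fold change was 0.11 (standard error 0.14), with an interval of 87.2% to 134.2% of control. It was 0.012 without control 1, 0.24 without control 3 and 0.21 without Yap-shRNA 3. Klf9 (ENSMUSG00000033863; chromosome 19, 23141226 to 23168134, plus strand), a repressor that is an early target of the receptor in many tissues, stood at 91.0, 51.9 and 68.3 CPM in controls and at 74.9, 79.6 and 75.8 CPM in treated muscles. The control muscles were widely spread, with an SD of 19.7 CPM against 2.48 CPM, and the treated muscles lay inside their range. The log2 fold change of Klf9 was 0.12 (standard error 0.17), with an interval of 83.2% to 142.8% of control. Zbtb16 (ENSMUSG00000066687; chromosome 9, 48654297 to 48836222, minus strand), which encodes a zinc finger repressor, had the same order of controls, 26.6, 13.8 and 23.1 CPM, against 23.3, 20.4 and 20.2 CPM in treated muscles. Control 2 was the low muscle in both Klf9 and Zbtb16. Without it the log2 fold changes were -0.054 and -0.23, and without control 1, the high muscle, they were 0.35 and 0.20. With control 1 and Yap-shRNA 3 both left out they were 0.36 and 0.24, with adjusted p of 0.879 and 0.918 by edgeR's quasi-likelihood test. Control 2 had the highest sum of muscle fibre markers and control 1 the highest sum of tendon markers, and the part of these in the spread was not tested.

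Cebpd (ENSMUSG00000071637; chromosome 16, 15887286 to 15891031, plus strand), a factor induced by glucocorticoids and by inflammatory signals, had the largest estimate of the 10. It stood at 6.07, 9.62 and 5.01 CPM in controls 1 to 3, from 61 to 115 reads, and at 7.21, 12.1 and 7.97 CPM in treated muscles 1 to 3, from 86 to 158 reads. The groups overlapped through control 2, yet each treated muscle was above the control of its own number, by 0.24, 0.33 and 0.65 on the log2 scale. Of the members 2 (Cebpd and Tsc22d3) were higher in all 3 same-numbered pairs and 0 were lower in all, against 8.56% and 8.95% of all genes. The mean of Cebpd was 132.0% of control, the log2 fold change 0.40 (standard error 0.28, unadjusted p = 0.175, edgeR quasi-likelihood adjusted p = 1.00) and the interval 86.2% to 203.2% of control. With the muscle number as a block, edgeR gave 0.41 (standard error 0.17, unadjusted p = 0.0427, adjusted p = 1.00), at a share of 1.53% of all genes under 0.05 before adjustment. Leaving out single muscles gave 0.14 without Yap-shRNA 2, 0.22 without control 3, 0.55 without Yap-shRNA 1 and 0.72 without control 2. Cebpd is the only member whose exons overlap another gene: 15.0% of its exon length is shared with Spidr on the opposite strand, and whether reads were counted by strand is not given in the sources used here. Spidr stood at 0.753 to 1.31 CPM over the 6 libraries, well under Cebpd. Macrophage markers (8 of 8), of cells that also make Cebpd, summed to 209.7, 130.8 and 85.0 CPM in controls 1 to 3 and to 146.9, 181.8 and 190.3 CPM in treated muscles. Their part in the Cebpd values was not tested.

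**Figure D3:**
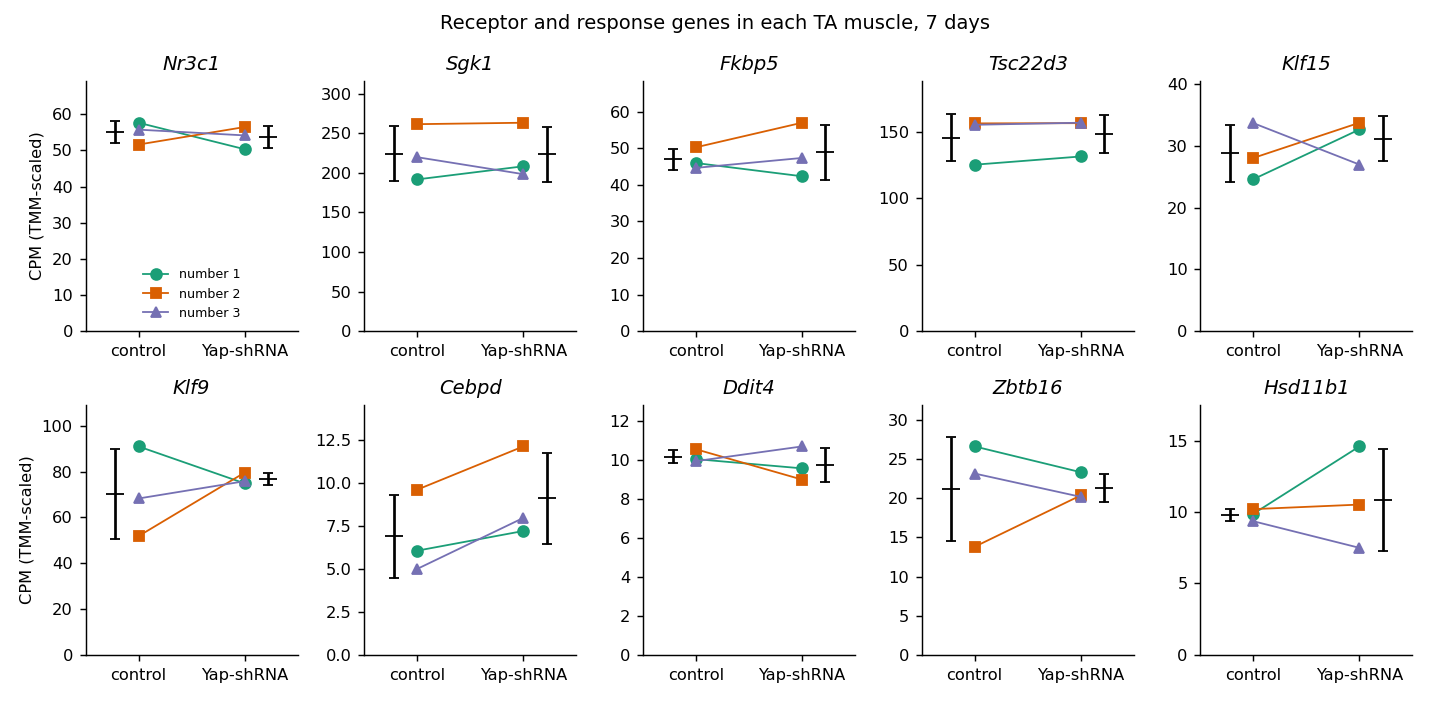
Level (CPM) of each member in the 3 control and 3 Yap-shRNA muscles, with a line joining muscles of the same number and black bars for the mean ± SD of each group; every axis starts at 0. The groups overlap in all 10 genes, Sgk1 and Cebpd are highest in number 2 on both sides, and Klf9 and Zbtb16 are spread in control but not in Yap-shRNA muscles.

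Since glucocorticoid action differs between animals with feeding, stress and time of day, the members were also compared between muscle numbers. With group in the model, 0 of 10 members differed between numbers after adjustment (edgeR, threshold 0.05), against 14 of 13113 genes (0.107%), and DESeq2, the likelihood ratio test and limma-voom called 0 members as well. Before adjustment 2 members were under 0.05, against 6.03% of all genes. They were Sgk1, with an edgeR adjusted p of 0.761, and Cebpd, with an edgeR adjusted p of 0.598. Muscle 2 was the highest of both groups in 3 members, Sgk1, Fkbp5 and Cebpd, as in 15.3% of all genes. The standard error of the group difference was smaller with the number as a block in 7 of 10 members, with a median ratio of 0.861, against 46.6% of genes and a median ratio of 1.01 over all genes tested. These shares describe the members and are no test of the group of 10.

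Among the known response genes outside the 10, Pdk4 and Angptl4 differed between numbers. Pdk4, which encodes a kinase that blocks glucose oxidation, stood at 1071, 306.9 and 181.3 CPM in controls 1 to 3 and at 1128, 341.8 and 185.3 CPM in treated muscles 1 to 3. The muscles of one number thus lay close together while numbers 1 and 3 differed several-fold. The edgeR adjusted p between numbers was 0.000393. Angptl4, a secreted inhibitor of lipoprotein lipase, stood at 20.2, 2.51 and 2.96 CPM in controls and at 18.5, 5.45 and 2.87 CPM in treated muscles (edgeR adjusted p = 0.0182). With control 2 or Yap-shRNA 2 left out, Pdk4 alone of all genes differed between numbers. Muscle 1 was far above the others on both sides in Pdk4 and Angptl4. Among the members it was the highest on both sides in Zbtb16, in control only in Nr3c1 and Klf9, and in Yap-shRNA only in Hsd11b1. It was the lowest on both sides in Tsc22d3 and never the highest in Sgk1, Fkbp5, Klf15, Cebpd and Ddit4. Per1, a clock gene induced through the receptor, stood at 25.7, 37.2 and 22.9 CPM in controls and 27.3, 44.6 and 28.4 CPM in treated muscles, highest in muscle 2 on both sides as was Cebpd, with an adjusted p between numbers of 0.201.

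**Figure D4:**
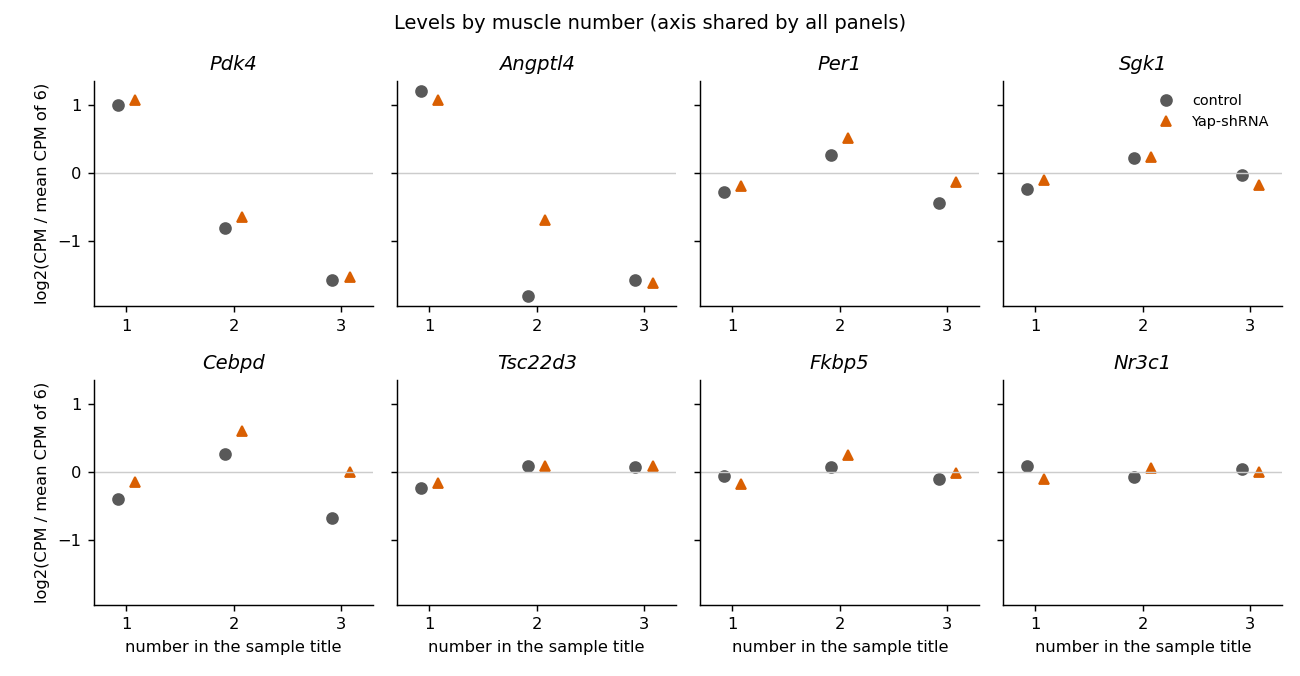
Levels by muscle number as log2 of CPM over the mean of the 6 libraries, on one axis for all panels, in control (grey circles) and Yap-shRNA muscles (orange triangles). Pdk4 and Angptl4 are highest in number 1 of both groups, Per1, Sgk1 and Cebpd in number 2, and the receptor gene Nr3c1 is flat.

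Genes whose levels over the 6 libraries were most like those of Fkbp5 were C87436, Fbxl5, Tyro3, Orc5 and Six5, with Pearson's r of 0.993, 0.99, 0.986, 0.983 and 0.979 on log2 CPM. For Cebpd, the member with the largest SD, they were Btg2 (0.987), Gm9816 (0.986), Mark4 (0.983), Dnase1l2 (0.975) and Per1 (0.973). Btg2, an antiproliferative early-response gene, stood at 18.1, 23.0 and 16.9 CPM in controls 1 to 3 and at 19.5, 27.5 and 22.009 CPM in treated muscles. Of the members, only Fkbp5 and Cebpd were compared with all the others in this way. Each was the closest member to the other (r = 0.832), and next came Sgk1 (0.746 for Fkbp5 and 0.706 for Cebpd). The genes named as most like Fkbp5 and Cebpd were the highest of 13113 genes over only 6 libraries, which share animals. All these values are given as a description without a p.

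A wider list of the receptor machinery covered chaperones, co-chaperones, ligand enzymes and coregulators. Of its 30 genes 28 were measured (all but Hsd11b2 and Srd5a1), and 0 passed the adjusted threshold in either direction by edgeR's quasi-likelihood test, with 0 under an unadjusted p of 0.05. Of the 28, 16 were on the higher and 12 on the lower side, with a median log2 fold change of 0.018 against -0.0025 over all genes. The estimates ran from -0.15 for Crebbp, a coactivator, to 0.32 for Hsp90aa1, which encodes the inducible form of Hsp90. Hsp90aa1 stood at 3.97, 4.35 and 3.78 CPM in controls and at 4.53, 6.68 and 3.83 CPM in treated muscles, overlapping through Yap-shRNA 3. Hsp90ab1, the other Hsp90 gene of the list, was far more abundant. It stood at 897.2 to 958.2 CPM in controls and 921.5 to 1038 CPM in treated muscles (log2 fold change 0.093). All treated muscles were below all controls in 2 of these genes, against 2.73% of all genes. They were Crebbp (22.9 to 25.6 against 25.9 to 28.7 CPM) and the deacetylase gene Hdac2 (46.7 to 48.7 against 50.6 to 53.2 CPM, log2 fold change -0.11). Their adjusted p was 1.00 in each case by edgeR's quasi-likelihood test.

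A list of 30 further response genes, of which 29 passed the filter (all but Tat), again gave 0 genes past the adjusted threshold for Yap-shRNA by edgeR's quasi-likelihood test. The median log2 fold change was 0.050, with 18 genes on the higher and 11 on the lower side. An unadjusted p under 0.05 was reached by 3 of the 29, against 1.61% of all genes, all on the higher side, namely Cdkn1a, Mt1 and Mt2. Cdkn1a, a cell cycle inhibitor that p53 and the receptor both induce, stood at 35.2, 29.0 and 38.8 CPM in controls 1 to 3 and at 47.1, 43.3 and 63.9 CPM in treated muscles 1 to 3. All treated muscles were above all controls, as in 2.54% of all genes, with a log2 fold change of 0.58 (standard error 0.16, unadjusted p = 0.0053, adjusted p = 1.00 by edgeR). The metallothionein genes, which bind zinc and answer to metals as well as to glucocorticoids, stood above every control in 2 of 3 treated muscles. Mt2 stood at 13.6, 4.02 and 3.04 CPM in controls and at 11.1, 34.6 and 48.6 CPM in treated muscles (log2 fold change 2.18, standard error 0.59). Mt1 stood at 17.4, 19.2 and 11.7 CPM in controls and at 18.8, 42.7 and 38.4 CPM in treated muscles (log2 fold change 1.05, standard error 0.29). In both, Yap-shRNA 1 overlapped the controls, and both had an edgeR quasi-likelihood adjusted p of 1.00. Between muscle numbers, 2 of the 29 genes passed the adjusted threshold (Pdk4 and Angptl4) and 10 were under 0.05 before adjustment, against 0.107% and 6.03% of all genes. The list was chosen with earlier results of these data known, so the shares in this paragraph describe it and are no test of it.

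**Figure D5:**
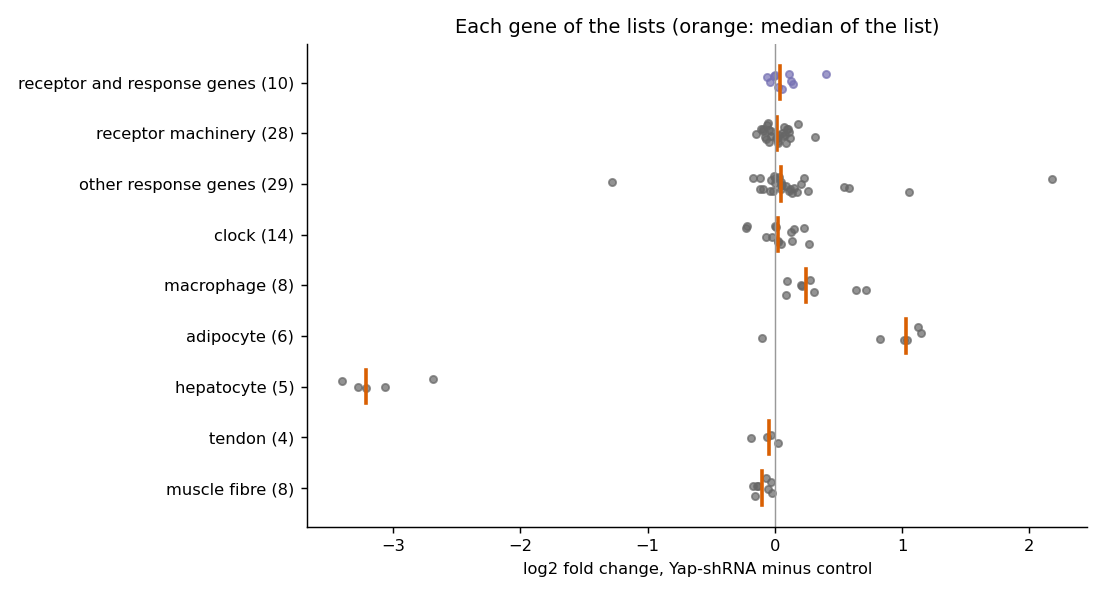
Log2 fold change (Yap-shRNA minus control) of each measured gene in the 10 receptor and response genes, the pathway lists and the marker lists, 1 point per gene, with an orange line at the median of each list. The 10 genes and the receptor machinery cluster near 0 with medians of 0.043 and 0.018, Mt2 is the right-most of the response genes at 2.18, and the hepatocyte markers lie near -3.22.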

How the data were processed

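PolyA-selected RNA of 6 TA muscles was sequenced. The authors deposited raw read counts per gene, not normalised. Per the labels, bcl2fastq 2.20.0.422 and GRCm38 were used. The aligner, counter and strand setting are not given in the sources used here. No gene of the table has fewer than 60 reads over the 6 libraries, so the table appears to have been filtered before deposit, and absence from the table does not mean absence from muscle.

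Counts were scaled by TMM, filtered with filterByExpr and compared between groups in a model without further covariates by the quasi-likelihood test (edgeR 4.0.16, R 4.3.3). Adjustment (Benjamini-Hochberg) ran over 13113 genes, and the threshold was 0.05. Standard errors were the log2 fold change over the root of the test statistic, and 95% intervals used the degrees of freedom of the test. Log2 CPM used a prior count of 2. Differences between muscle numbers were tested in a fit with group and number. DESeq2 1.42.0 and limma 3.58.1 were alternatives. The code was tested on simulated counts. Between groups the quasi-likelihood test recovered 160 of 195 changed genes with 14 false calls. Between numbers it recovered 143 of 199 with 33 false calls. In both cases the share of false calls was above the threshold of 0.05, so genes called between numbers near the threshold are less certain. Within groups the chi-square between libraries was 7.71 to 21.7 per degree of freedom, and each was kept as a separate sample. The pairing of numbers comes from the study design; the correlation across genes between deviations sharing a number was -0.062, 0.225 and -0.266 for numbers 1 to 3.

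Positions and exon lengths came from GENCODE M21 on GRCm38, where 13199 of 13226 identifiers matched. The members, the gene lists and the marker lists (muscle fibre, macrophage, neutrophil, adipocyte, fibroblast, tendon, endothelial, hepatocyte, erythroid) were chosen with earlier results of these data known. Named genes were the members, Yap1, list genes past a threshold or under an unadjusted p of 0.05, and the 5 genes most like Fkbp5 and the most variable member. Genes at the ends of a list, or whose groups did not overlap, and Spidr were described after their values were seen. One result of the receptor machinery list is not reported here.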

Additional observations from a re-analysis of the deposited data

How the results depend on the processing

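Over the 10 members and the 13 alternatives set out for them, 118 of 130 estimates kept their direction and their side of the threshold and 12 changed sign, all of them with 1 muscle left out. Omitting single muscles moved the estimate (log2) from -0.080 to 0.0082 for Nr3c1, -0.14 to 0.12 for Sgk1, -0.066 to 0.15 for Fkbp5, -0.071 to 0.11 for Tsc22d3, -0.054 to 0.35 for Klf9, -0.23 to 0.20 for Zbtb16, -0.12 to 0.35 for Hsd11b1, 0.012 to 0.24 for Klf15, 0.14 to 0.72 for Cebpd and -0.13 to -0.0060 for Ddit4, and that of Yap1 from -1.29 to -0.93. Leaving out both tendon-rich muscles, chosen after seeing the data, gave -0.11 for Tsc22d3, -1.26 for Yap1 (adjusted p 0.0375) and 4 genes past the threshold. Yap1 also passed with DESeq2 (-1.10, adjusted p 5.05e-07) and the likelihood ratio test (-1.10, 1.72e-06), which called 5 genes each against 0, and leaving out a muscle gave 0 to 1. Pairing by number (replicate block) gave 0 genes and 0 members and changed no call. Between numbers, 14 genes became 55 with DESeq2, 129 with the likelihood ratio test and 1 to 335 without a muscle (1 without control 2 or Yap-shRNA 2, 335 and 44 when control 3 or control 1 was omitted, 300 and 275 when Yap-shRNA 1 or 3 was), with 0 members each time. The cause was not tested.

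Cebpd, Ddit4 and Hsd11b1 had 61 to 174 reads a library. Ddit4 varied no more than counting gives, whereas Cebpd (coefficient of variation 32.1% against 10.0% from counting) and Hsd11b1 (22.6% against 8.84%) varied more. The source of that further spread was not tested. The interval of Cebpd leaves room for a change from 86.2% to 203.2% of control.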

Other observations

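Clock genes (14 of 15 measured, all but Npas2), many of which answer to glucocorticoids, gave 0 genes past the threshold by edgeR's quasi-likelihood test and 0 under an unadjusted p of 0.05, with a median log2 fold change of 0.022. Arntl, a core activator of the clock, stood at 12.6 to 13.1 CPM in controls and 10.7 to 11.2 CPM in Yap-shRNA muscles without overlap (log2 fold change -0.23, edgeR adjusted p = 1.00). It was 1 of the 14 with all treated muscles below all controls, against 2.73% of all genes, and was picked after its values were seen.

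The remaining marker lists gave 0 genes past the threshold as well by the same test. Their median log2 fold changes were 0.24 for macrophage, 1.03 for adipocyte, 0.11 for fibroblast and 0.028 for endothelial markers. They were 0.036 for erythroid, -0.048 for tendon, -0.099 for muscle fibre and -3.22 for hepatocyte markers. The adipocyte median rests on Yap-shRNA 3, where every measured adipocyte marker but Fabp4 was highest. Adipoq stood there at 16.3 CPM against 1.59 to 4.75 CPM in the other muscles. The adipocyte sums overlapped, at 241.3 to 271.9 CPM in control and 235.1 to 295.7 CPM in treated muscles. All macrophage (8) and erythroid (5) markers were on the higher side, and all muscle fibre (8) and hepatocyte (5) markers on the lower. Over all genes 49.0% were on the higher side. The markers of 1 list are not independent of each other, and the sums of these lists overlapped between groups. Macrophage sums were 85.0 to 209.7 CPM in control and 146.9 to 190.3 CPM in treated muscles. Erythroid sums were 120 to 203.1 and 101 to 242.5 CPM, and muscle fibre sums 140700 to 164700 and 134400 to 158900 CPM. Of the hepatocyte markers, 4 of 5 were under an unadjusted p of 0.05 by the same test, against 1.61% of all genes. Each of the 5 was highest in control 3, however, and the groups overlapped in all of them. With the muscle number as a block, their unadjusted p by edgeR's quasi-likelihood test was 0.111 to 0.329. Hepatocyte sums were 0.934, 49.4 and 419.3 CPM in controls 1 to 3 and 14.4, 36.4 and 0.399 CPM on the treated side. None of the 4 neutrophil markers was in the table. Cd163, a macrophage gene that glucocorticoids induce, stood at 6.07, 2.93 and 5.34 CPM in controls and 7.05, 6.61 and 7.34 CPM in Yap-shRNA muscles (log2 fold change 0.55, unadjusted p = 0.0537, edgeR adjusted p = 1.00). Pck1, a gluconeogenic enzyme gene of liver and fat, stood at 18.3 CPM in control 3, the muscle with the highest hepatocyte sum, and at 1.95 to 4.55 CPM in the other 5 muscles.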
